A study of Laxus oneistus with 16 samples.

Results

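The comparison described here is between *Laxus oneistus* worms kept at full air saturation (O, 100% air saturation) and worms kept under hypoxia (H, 30% air saturation), each for 24 h. Its members were transcripts that reached 10 reads in 3 or more libraries of one of the conditions. Of these 18474, 1042 were left out because they had fewer than 10 reads summed over 11 libraries. These 11 were all libraries other than A replicates 3 and 5 and O replicates 2, 3 and 5. Thus 17432 of the 27984 transcripts in the files were tested. 15334 of them passed the read limit in both conditions, 2021 only through O and 77 only through H.

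*L. oneistus* is a marine nematode of shallow-water sand that carries a coat of the sulfur-oxidizing bacterium *Candidatus* Thiosymbion oneisti, and it was collected from the field as adult-sized animals. Whole worms with their symbiont were incubated in the dark in filtered seawater, 50 pooled animals per library, and rRNA-depleted RNA was sequenced. Under O the open vials stood in an aquarium bubbled with air (6 libraries), and under H the open vials were only exposed to air (3 libraries). The series also holds worms kept without oxygen (A, 4 libraries) or without oxygen but with sulfide (AS, 3 libraries). Their levels are given here only beside some transcripts. The animals came from several field trips, and the labels tie no library to a trip, an age or a sex. Nothing in the labels says that replicates of a condition came from separate collections, so p-values measure the spread between these pools.

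Oxygen is the final electron acceptor of the mitochondrial respiratory chain, and animals that meet less of it commonly change the expression of genes for oxygen carriers, energy metabolism, chaperones and protein turnover. Globins bind oxygen, HSP70 and HSP90 chaperones fold proteins and hold damaged ones, and ubiquitin marks proteins for degradation. The levels below are CPM, that is, counts relative to the TMM-adjusted library total, which corrects for library composition but not for transcript length, so levels are compared between libraries and never between transcripts. In whole worms a change in the share of a tissue and a change in RNA per cell cannot be told apart.

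The 6 O libraries were unevenly alike, and O replicate 6 lay farthest from the rest. Total counts ranged from 9032241 to 18627740 in O and from 13155250 to 15123804 in H. The files held 6234 transcripts with fewer than 10 reads over the 11 libraries named above. O replicates 2, 3 and 5 held 0.575% to 1.28% of their counts on these. O replicates 1, 4 and 6 and the H libraries held at most 0.00555%. Their low share was fixed by that choice, since they are among the 11. O replicate 6 stood apart from all others, with 17571 transcripts detected after thinning every library to 9032239 counts, against 19690 to 20728 in H and 20531 to 25900 in the other O libraries. The Euclidean distance between libraries on log2 CPM averaged 125.1 within O (15 pairs) and 102.9 within H (3 pairs), and 122.0 between O and H (18 pairs). The average within O exceeded that within H by 22.2, a gap that rested on O replicate 6, which lay 171.3 from the other O libraries on average, and without it the difference was -0.963. O replicates 1 and 4 were nearest to H replicate 2 and not to another O library. Likewise, H replicates 1, 2 and 3 were each nearest to O replicate 1 and not to another H library. The distance of O replicates 1 and 4 to the H libraries averaged 97.4, below the 102.9 within H. O and H did not differ detectably in the number of transcripts detected after thinning (22650 ± 3490 in O, SD, n = 6, and 20260 ± 526 in H, SD, n = 3; two-sided exact permutation p = 0.286), in the percentage of counts on the 100 transcripts that the study lists as most expressed (15.6 ± 1.05 and 16.9 ± 2.12; exact p = 0.357) or in the percentage on 2 mitochondrially encoded transcripts, *nduo-4*-like and *ctc-1* (1.33 ± 0.543 and 1.13 ± 0.133; exact p = 0.548). The smallest p that 6 against 3 libraries can give is 0.0238.

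**Figure D1:**
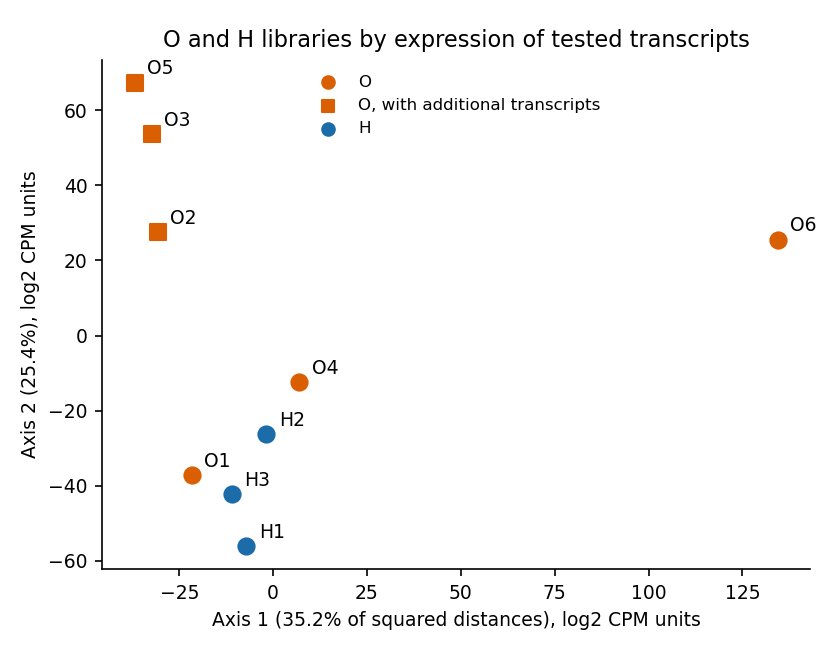
Multidimensional scaling of the 6 O (orange) and 3 H (blue) libraries from their distances on log2 CPM of the tested transcripts, with axis 1 holding 35.2% and axis 2 holding 25.4% of the squared distances and squares marking O replicates 2, 3 and 5. O6 lies alone at the right, the squares lie at the upper left, and O1 and O4 lie next to the 3 H libraries.

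A transcript was called when its false discovery rate (FDR) did not exceed 0.05 and its level differed 1.5-fold or more. In all, 6 transcripts were called, and all 6 were higher in H (0.0344% of the transcripts tested). 0 transcripts were called higher in O by edgeR's quasi-likelihood test, although 1561 transcripts had an unadjusted p under 0.05, of which 930 were higher in O and 631 higher in H. The smallest FDR was 0.021 among all transcripts and 0.0933 among those higher in O. The median log2 fold change over all tested transcripts (O minus H) was 0.02, and 52.1% of them were on the side of O. Other tests gave other numbers of calls: DESeq2 called 121 transcripts, 74 of them higher in O, edgeR's likelihood ratio test called 66 (30 higher in O), its exact test called 51 (20 higher in O), and limma voom called 3 (0 higher in O). All 6 transcripts were among those that DESeq2 and the likelihood ratio and exact tests called, and 2 of them were among those of limma voom. Of the 6, 5 had 0 reads in every O library and entered the test only through H. Their calls by other tests on the same counts are therefore no further support. The 2 shared with limma voom were among these 5.

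Of the 6 calls, 5 were transcripts detected in the 3 H libraries and with 0 reads in the 13 other libraries of the series. They entered the test only through H, so that a difference was fixed by the read limit, and their values are given as a description. DN17260, which carries no name in the tables used here, had 177, 118 and 112 reads in H replicates 1, 2 and 3 and 0 reads in every O, A and AS library. This was 9.89 ± 3.12 CPM in H (SD, n = 3), and at least 267-fold higher than in O when O is set to a floor of 3 reads over its 6 libraries (edgeR FDR = 0.021). A transcript matched to the *C. elegans* gene *C13A6.1*, with no protein domain detected, had 45, 176 and 122 reads in H, at least 217-fold above that floor (FDR = 0.0354). DN3923, also without a name, had 48, 107 and 67 reads in H, at least 141-fold above the floor (FDR = 0.0354).

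In all, 8 transcripts had at least 10 reads in every H library and 0 in the 13 others, with 86 to 497 reads in the H libraries together. All 3 H libraries contributed, with 823, 721 and 829 reads over the 8 transcripts in replicates 1, 2 and 3. The same rule gave 0 transcripts for O against the 10 other libraries, 0 for A and 0 for AS. These counts are not comparable with that of H. O had to reach the limit in 6 libraries and A in 4, against 3 for H. The authors assembled no AS reads, so a transcript present in AS alone could hardly be among those counted. All 8 came from the sub-assembly that the authors built from 3 libraries each of O, H and A, which supplied 71.8% of the transcripts tested. No sequence of these transcripts was analysed here, and their origin was not tested.

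DN52744, chosen for description after its values were seen, was the sixth call and the single called transcript that passed the read limit in both conditions. It had 573.4, 351.5 and 662.1 CPM in H replicates 1, 2 and 3 and 117.7, 166.1, 118.7, 213.5, 187.8 and 204.2 CPM in O replicates 1 to 6. The lowest H library was therefore above the highest O library. The log2 fold change was -1.65 ± 0.23 (SE; FDR = 0.0354), and it was -1.56 with O replicates 1, 4 and 6 alone (FDR = 0.982) and -1.75 with O replicates 2, 3 and 5 alone (FDR = 0.00798). The call was lost in 14 of 26 alternatives, among them limma voom (FDR = 0.0581), edgeR's test against a change of 1.5-fold (FDR = 0.198) and the fits without H replicate 1 (0.344) or H replicate 3 (0.31). Worms without oxygen had levels like or below those of O, from 56.4 to 127.4 CPM in A and from 67.7 to 177.0 CPM in AS. It has no name in the tables used here.

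**Figure D2:**
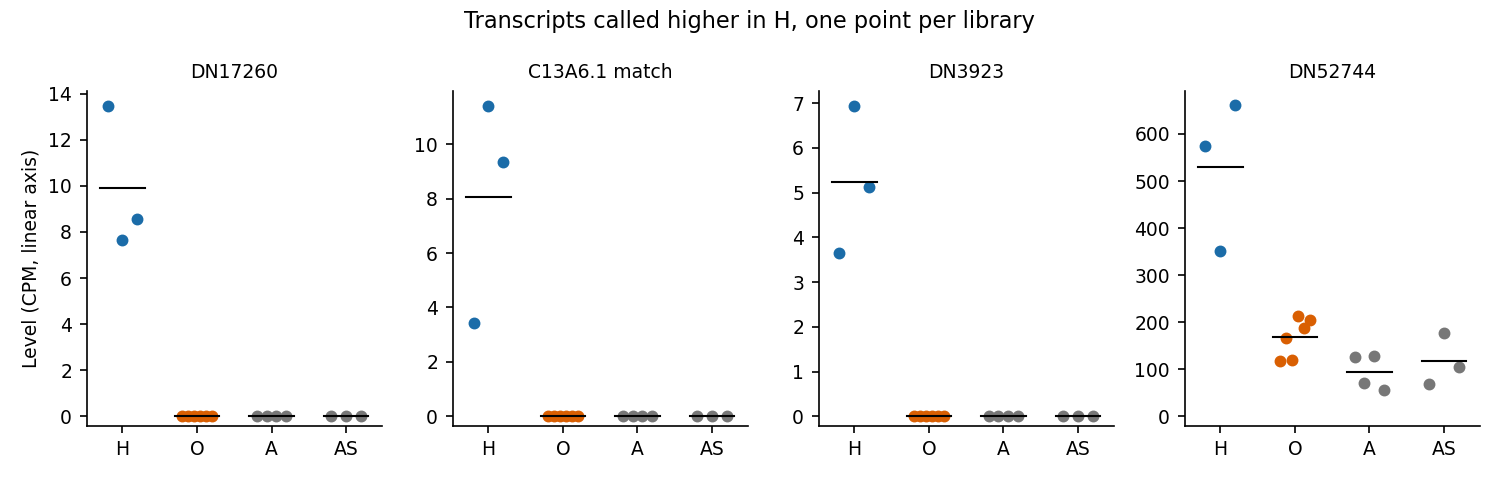
Level in CPM (linear axis, separate for each panel) of 4 of the 6 transcripts called higher in H, with a point for each library and a line at the mean of each condition. For DN17260, the *C13A6.1* match and DN3923 all 13 O, A and AS libraries lie at 0, whereas DN52744 was present throughout, with 117.7 to 213.5 CPM in O and 351.5 to 662.1 CPM in H.

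The number of calls depended on which libraries were compared. Without H replicate 1 or without H replicate 3, 0 transcripts were called, with 819 and 1030 transcripts at an unadjusted p under 0.05, and without H replicate 2 there were 5 calls, 2 of them shared with the 6. Leaving out O replicate 2, 3, 4 or 5 left 1 call each, whereas leaving out O replicate 1 gave 9 calls and leaving out O replicate 6 gave 10, in both cases with all 6 included and 2 transcripts higher in O. O replicates 1, 4 and 6 alone gave 0 calls against H in edgeR's quasi-likelihood test, with 492 transcripts at an unadjusted p under 0.05, and O replicates 2, 3 and 5 alone gave 404 calls (2.32% of those tested), of which 336 (1.93%) lay above H and 68 (0.39%) below it.

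The 336 transcripts that O replicates 2, 3 and 5 had above H were at low levels in the other O and the H libraries and not in A replicates 3 and 5. Their median was 7.5 CPM in these 3 O libraries, 0.321 CPM in O replicates 1, 4 and 6, 0.29 CPM in H, 11.1 CPM in A replicates 3 and 5 and 0.31 CPM in A replicates 1 and 2. Among the A libraries, both A replicates 3 and 5 were above both A replicates 1 and 2 for 319 of the 336 (94.9%), compared with 24.7% of all tested transcripts. The filter on the 11 other libraries had already grouped A replicates 3 and 5 with these O libraries, so they are no independent group. A transcript at the medians of 0.29 CPM in H and 0.321 CPM in O replicates 1, 4 and 6 is below the read limit there. It could enter the test only through O replicates 2, 3 and 5, so that a difference was fixed by the read limit. How many of the 336 entered in this way was not counted, and these calls are given as a description. The 68 transcripts called higher in H against the same 3 O libraries had a median of 64.1 CPM in O replicates 2, 3 and 5, 77.1 CPM in O replicates 1, 4 and 6 and 109.0 CPM in H. Why these O libraries differed was not tested.

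**Figure D3:**
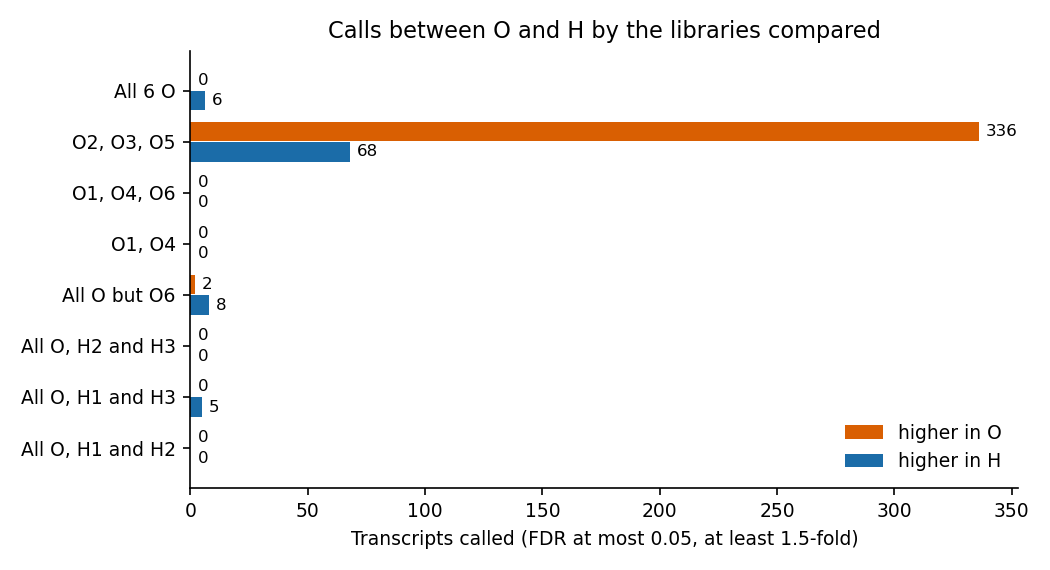
Number of transcripts called between O and H (FDR of at most 0.05 and at least 1.5-fold) for the libraries named on the vertical axis, with orange bars for transcripts higher in O and blue bars for transcripts higher in H. All 6 O libraries gave 0 and 6 calls, O2, O3 and O5 gave 336 and 68, and O1, O4 and O6 gave none.

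The named transcripts were described in 19 functional lists and a group of other genes, 146 of whose 147 members were tested and 0 of which were called, the smallest FDR being 0.344. At an unadjusted p under 0.05 with at least 1.5-fold, 9 of 146 (6.16%) were higher in O and 4 (2.74%) higher in H, beside 3.86% and 1.57% of all tested transcripts. The 4 on the side of H were *hsp-1*, *tbb-4*, *sqst-1*-like and *ig-h3-like-2*, each highest in H replicate 1 among the H libraries, and without that library 0 members passed these limits on the side of H and 10 on the side of O. With O replicates 1, 4 and 6 alone the numbers were 0 and 4. All O libraries lay above all H libraries for 3 of 146 (2.05%), beside 1.65% of all transcripts, and all H libraries above all O libraries for 3 (2.05%), beside 2.61%. For 128 of the 146 the fitted change was under 1.5-fold, beside 14641 of all 17432 transcripts tested, which is a similar share. The values that follow are therefore levels with their spread, none of which passed the FDR limit.

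Among calcium-binding proteins, *nex-2*, an annexin that binds membrane phospholipids when calcium is present, had the smallest p of all named transcripts on the side of O. It had 343.5, 394.3, 542.6, 363.0, 272.9 and 411.8 CPM in O replicates 1 to 6 and 215.6, 225.6 and 168.7 CPM in H replicates 1 to 3, so the groups did not overlap. The log2 fold change was 0.94 ± 0.21 (SE; FDR = 0.344), and it was 0.88 with O replicates 1, 4 and 6 and 0.99 with O replicates 2, 3 and 5. *cex-2*-like, a relative of the calcium sensor calexcitin, had 373.5 to 474.4 CPM in O and 259.0 to 376.9 CPM in H (log2 fold change 0.40). All 5 members of this list had a positive fold change, with a median of 0.27, but *nex-2* alone was past the unadjusted limits.

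The globin list also lay on the side of O. *glb-14*-like had 236.7, 361.2, 521.8, 371.3, 306.2 and 370.6 CPM in O and 282.8, 198.3 and 216.8 CPM in H (log2 fold change 0.64 ± 0.22, FDR = 0.507). O replicate 1 fell within the range of H, and the other 5 O libraries lay above all H libraries. The *glb-1*-like transcript DN51537 had 237.0 to 593.4 CPM in O and 240.8 to 333.8 CPM in H (log2 fold change 0.54), and the *glb-1*-like transcript DN84338 had 1049 to 1963 CPM in O and 1010 to 1222 CPM in H (0.39). The median over the 3 globins was 0.54, compared with 0.02 over all transcripts. It was 0.49 with O replicates 1, 4 and 6, 0.47 with O replicates 2, 3 and 5 and 0.43 without O replicate 6.

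Among the other named genes, *ndk-1* (DN93568), a nucleoside diphosphate kinase that balances nucleotide pools, had 93.6 to 186.6 CPM in O with a median of 128.3, and 88.2, 69.7 and 87.6 CPM in H. The groups did not overlap (log2 fold change 0.71 ± 0.20, FDR = 0.464). A further *ndk-1* transcript, DN52354, had 113.1 ± 16.7 CPM in O (SD, n = 6) and 94.0 ± 5.68 CPM in H (SD, n = 3). *hmg-1.1*-like, a high mobility group protein that bends DNA in chromatin, was nearly constant in H at 100.1, 101.7 and 101.9 CPM and ranged from 98.3 to 204.0 CPM in O, with O replicate 1 the one O library not above H (log2 fold change 0.72 ± 0.20, FDR = 0.464). *ttr-35*, a transthyretin-related protein, had 252.6 CPM in O replicate 1 and 349.7 to 398.8 CPM in the other 5, against 217.3, 225.7 and 289.7 CPM in H (0.50 ± 0.17, FDR = 0.507). *ZK673.2*-like, an adenylate kinase, was the third named transcript with all O libraries above all H libraries, at 67.6 to 82.6 CPM and 49.8 to 63.9 CPM.

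Chaperones lay mostly on the side of H. *hsp-1*, the constitutive HSP70 of *C. elegans*, had 5285, 3092 and 3551 CPM in H replicates 1 to 3 and 3298, 2142, 2457, 2304, 2142 and 2188 CPM in O replicates 1 to 6. H replicate 1 and O replicate 1 were the highest library of their groups, and O replicate 1 was the one O library above the lowest H library. The log2 fold change was -0.70 ± 0.21 (SE; FDR = 0.502), -0.60 with O replicates 1, 4 and 6, -0.82 with O replicates 2, 3 and 5 and -0.45 without H replicate 1. *hsp-90-2*, an HSP90 chaperone, had 4013 to 6853 CPM in O and 6195 to 9386 CPM in H, overlapping between the groups. In all, 6 of the 8 chaperone transcripts were on the side of H, with a list median of -0.23. *hsp-3*, an HSP70 of the endoplasmic reticulum, had a log2 fold change of 2.12 that rested on O replicates 2, 3 and 5, with 96, 265 and 92 reads there, 7 to 16 reads in O replicates 1, 4 and 6 and 12 to 22 reads in H.

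*tbb-4*, a beta tubulin that forms microtubules in *C. elegans* sensory neurons, had 2433, 1595 and 1568 CPM in H and 987 to 1416 CPM in O, with a median of 1102. Every H library was above every O library (log2 fold change -0.70 ± 0.18, FDR = 0.453), and H replicate 1 was well above the other H libraries, without which the change was -0.47. The intermediate filament transcript *ifb-1* DN94423 had 1691 ± 287 CPM in O and 2335 ± 742 CPM in H, and *ifa-1-1* had 2540 ± 357 and 2573 ± 476 CPM (SD, n = 6 and n = 3). Of the 8 transcripts of this list, 1 was past the unadjusted limits in each direction.

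The ubiquitin transcripts and the autophagy receptor *sqst-1*-like were all on the side of H, with a median log2 fold change of -0.35 over 4. *sqst-1*-like, a relative of p62, which binds ubiquitinated cargo, had 4046, 2356 and 2972 CPM in H and 2076, 1530, 1884, 1700, 1919 and 3028 CPM in O. O replicate 6 lay within the range of H and the other 5 O libraries lay below all H libraries (log2 fold change -0.62 ± 0.23, FDR = 0.507, and -0.39 without H replicate 1). The polyubiquitin transcript *ubq-1-1* had 1968 to 2471 CPM in O and 2516 to 3383 CPM in H, without overlap (-0.36 ± 0.15, FDR = 0.527). The other *ubq-1* transcripts overlapped. *ubq-1-2* had 1668 to 2156 CPM in O and 2147 to 2907 CPM in H, and *ubq-1-3* had 522.9 to 740.9 and 549.1 to 761.9 CPM.

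The 3 translation factor transcripts were likewise on the side of H, with a median of -0.38. *eef-1A.2* (DN53482), the elongation factor that delivers aminoacyl-tRNA to the ribosome, had 1934 to 2363 CPM in O and 3559, 2537 and 2598 CPM in H, without overlap (-0.42 ± 0.16, FDR = 0.507, and -0.25 without H replicate 1). A further *eef-1A.2* transcript, DN10043, overlapped, with 130.0 to 258.4 CPM in O and 215.5 to 280.9 CPM in H. *pab-1*, which binds poly(A) tails, had 2681 to 4940 CPM in O and 4233 to 5129 CPM in H, overlapping through O replicate 1 alone. The cytoplasmic ribosomal proteins lay on the other side. 16 of 18 had a positive fold change, 0 passed the unadjusted limits, and the median was 0.21. The median was 0.34 with O replicates 1, 4 and 6, 0.08 with O replicates 2, 3 and 5 and 0.10 without O replicate 6. Summed over the list, the ribosomal protein transcripts ranged from 6968 CPM (O replicate 1) to 13500 CPM (O replicate 6) in O, and from 8314 to 10300 CPM in H. *rps-24* had the largest change of the list, with 622.0, 858.1, 876.3, 1257, 950.4 and 1396 CPM in O replicates 1 to 6 and 783.3, 645.6 and 638.7 CPM in H (log2 fold change 0.53).

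**Figure D4:**
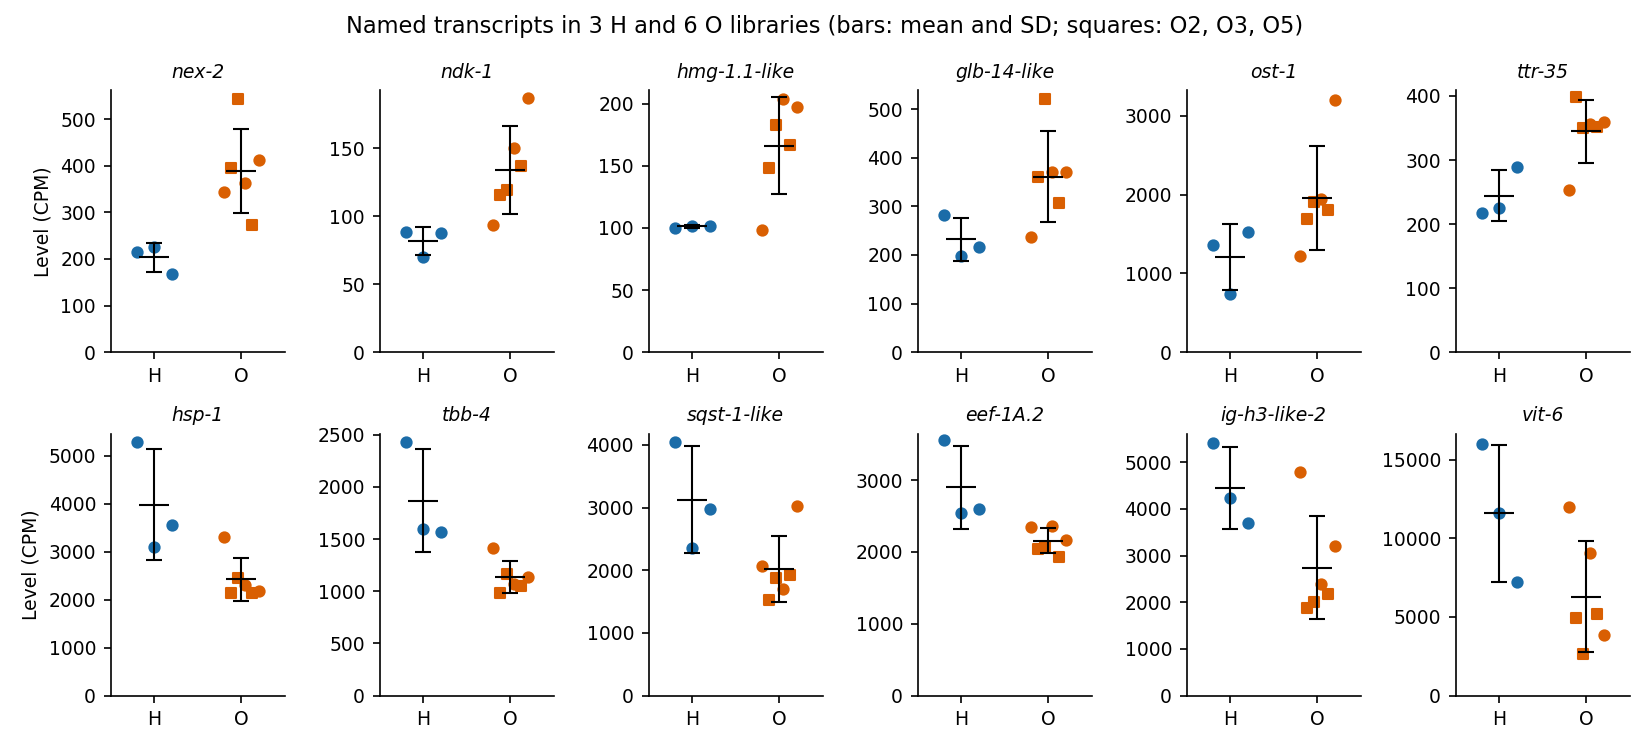
Level in CPM of 12 named transcripts in the 3 H (blue) and 6 O (orange) libraries, with the mean and SD of each group and squares for O replicates 2, 3 and 5, the vertical axes starting at 0. The upper 6 had higher means in O and the lower 6 higher means in H, the groups overlapped in 8 of the 12 panels (all but *nex-2*, *ndk-1*, *tbb-4* and *eef-1A.2*), and none passed the FDR limit.

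Extracellular matrix transcripts went both ways. *ost-1*, the nematode SPARC or osteonectin of basement membranes, had 1223, 1690, 1912, 1947, 1807 and 3199 CPM in O and 1355, 732.4 and 1530 CPM in H (log2 fold change 0.71 ± 0.29, FDR = 0.527). *ig-h3-like-2*, named after a matrix protein induced by TGF-beta, had 5412, 4229 and 3687 CPM in H and 1876 to 4778 CPM in O with a median of 2286 (-0.68 ± 0.29, FDR = 0.529). O replicate 1 was the single O library within the range of H. Its change was -1.13 against O replicates 2, 3 and 5 and -0.34 against O replicates 1, 4 and 6. The collagen *col-96*-like varied within H from 676.9 to 4590 CPM, which was more than its range of 1383 to 2382 CPM in O.

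Yolk proteins, which nematodes make in the intestine for their eggs, had the lowest list median, at -0.85. *vit-6* had 15960, 11590 and 7237 CPM in H and 11960, 4920, 2646, 9089, 5198 and 3840 CPM in O (log2 fold change -0.87 ± 0.41, FDR = 0.565, and -0.57 without H replicate 1). The groups overlapped, with O replicates 1 and 4 inside the range of H. *vit-4* and *vit-5*-like had log2 fold changes of -0.85 and -0.83 and the same order of libraries within O, and the median of the 3 was -0.43 with O replicates 1, 4 and 6 and -1.43 with O replicates 2, 3 and 5. The summed yolk level varied 4.5-fold among the O libraries and 2.2-fold among the H libraries.

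Muscle transcripts were near the median of all genes. The thick filament list of 18 had a median of 0.14 and the thin filament list of 15 a median of 0.02. *unc-15-1*, the paramyosin core of thick filaments, had 6349 ± 606 CPM in O and 7324 ± 1610 CPM in H, and *unc-54* DN95736, a body wall myosin heavy chain, had 3459 ± 1010 and 3170 ± 673 CPM (SD, n = 6 and n = 3). The troponins *tni-3* and *pat-10-1* had log2 fold changes of 0.20 and 0.21. Past the unadjusted limits on the side of O were *unc-54* DN78019, *myo-3* (of the cluster DN88723), the intermediate filament *ifa-1* DN83970 and the glycolytic *gpd-3* DN80994. *unc-54* DN78019 had 162, 491 and 553 reads in O replicates 2, 3 and 5, 43, 12 and 12 in O replicates 1, 4 and 6 and 27, 8 and 15 in H (log2 fold change 3.73 ± 1.28). With O replicates 1, 4 and 6 alone, the changes were 0.36, 0.28, -0.11 and -0.10, and with O replicates 2, 3 and 5 alone they were 4.66, 1.79, 2.07 and 2.61, in the order in which they are named above. The part of the additional transcripts' source in these values was not tested.

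Energy metabolism showed small differences, as did most transcripts tested. Of the 8 transcripts of glycolysis and gluconeogenesis, 7 changed by less than 1.5-fold, with a list median of 0.04. The 7 transcripts of the TCA cycle and malate dehydrogenases all did, with a median of 0.14. Of all 17432 transcripts tested, 14641 also changed by less than 1.5-fold, so these counts are near the share over all transcripts. The aldolase *aldo-1* DN52711 had 1916 ± 210 CPM in O and 1930 ± 223 CPM in H, and the citrate synthase *cts-1* had 805.5 ± 67.2 and 735.2 ± 59.2 CPM. The PEP carboxykinase *pck-2-1*, which interconverts phosphoenolpyruvate and oxaloacetate, had 1323 to 1861 CPM in O and 1615 to 2272 CPM in H (log2 fold change -0.28, and -0.12 without H replicate 1). *nduo-4*-like, a mitochondrially encoded subunit of complex I, ranged from 6169 CPM (O replicate 1) to 19550 CPM (O replicate 6) within O, around the 8624 to 12020 CPM of H. *ctc-1*, the mitochondrially encoded subunit I of cytochrome c oxidase, which reduces oxygen, had 633.0 to 1065 CPM in O and 892.0 to 1313 CPM in H (-0.40 ± 0.19, FDR = 0.56, and -0.20 without H replicate 1), so these 2 transcripts of the same organelle lay on opposite sides. *T02H6.11*, annotated in *C. elegans* as a subunit of complex III, had 493.2 ± 137 CPM in O and 362.6 ± 16.7 CPM in H (0.45).

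Of the genes that break down peroxides, the catalase *ctl-2* had 3617 ± 1010 CPM in O and 3761 ± 689 CPM in H, and *ctl-1* had 594.7 ± 215 and 789.1 ± 223 CPM. The peroxiredoxin *prdx-2* had 380.6 ± 88.1 and 341.9 ± 25.8 CPM (SD, n = 6 and n = 3). The list median of the 4 was 0.05. The 3 transcripts for sulfide detoxification had a median of 0.14 and the 3 of the propionyl-CoA pathway 0.03, the latter with changes from 0.02 to 0.05. The 5 histone transcripts were all on the side of O, with a median of 0.31 and the largest change in *htz-1*, the variant H2A.Z (64.7 to 122.4 CPM in O and 62.6 to 83.1 CPM in H). The 2 immune effectors, the galectin *lec-3* and a lysozyme-like protein, were on the side of H by -0.14 and -0.44, and by -0.034 and -0.13 without H replicate 1.

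**Figure D5:**
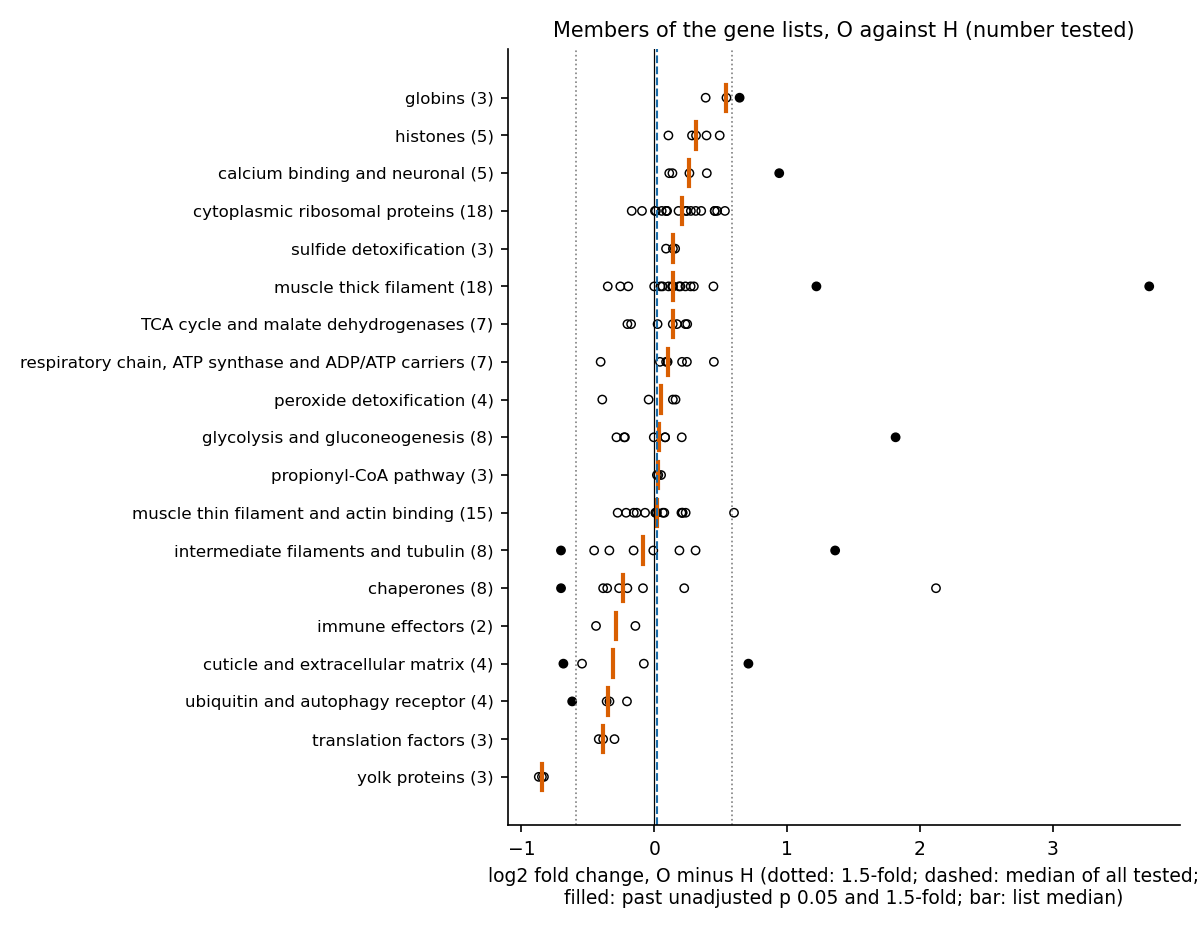
Log2 fold change (O minus H) of each tested member of the 19 gene lists, with filled points for members past an unadjusted p of 0.05 and 1.5-fold, an orange bar at the list median, a dashed line at the median of all tested transcripts and dotted lines at 1.5-fold. Globins have the highest median (0.54) and yolk proteins the lowest (-0.85), and the filled point farthest to the right is *unc-54* DN78019 at 3.73.

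Of the transcripts without a name, DN77794 and DN44373 had the smallest p on the side of O among those present with 10 reads or more throughout O. DN77794 had 33.2, 61.3, 47.6, 50.6, 37.1 and 33.1 CPM in O replicates 1 to 6 and 17.6, 15.9 and 17.9 CPM in H (log2 fold change 1.36 ± 0.22, FDR = 0.0933), and DN44373 had 7.07 to 15.7 CPM in O and 2.602 to 4.259 CPM in H (1.69 ± 0.30, FDR = 0.118). The groups did not overlap for either. O replicates 1, 4 and 6 alone gave changes of 1.19 and 1.66, and O replicates 2, 3 and 5 alone gave 1.51 and 1.72.

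The transcripts past the unadjusted limits of p under 0.05 and 1.5-fold made up 3.86% of those tested on the side of O and 1.57% (274) on the side of H. Their level and their route through the read limit differed. When all tested transcripts were divided by mean CPM into 4 sets of 4358, the lowest set (0.325 to 4.14 CPM) held 270 on the side of O and 55 on the side of H, whereas the highest set (from 57.01 CPM) held 56 and 91. Of those on the side of O, 43.8% had passed the read limit only through O. O replicates 1, 4 and 6 lay on the same side as the fit for 84.7% of those on the side of O and for all 274 on the side of H. The median change on the side of O was 0.75 with those 3 libraries and 1.63 with O replicates 2, 3 and 5, and on the side of H it was -0.82 and -0.89. Since these transcripts were chosen on the same contrast, the values are a description.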

How the data were processed

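RNA of 16 pools of 50 *L. oneistus* was sequenced by the authors, who removed symbiont and rRNA reads, assembled the transcriptome *de novo* and estimated counts with bowtie2 and RSEM 1.3.1. The deposited values are RSEM expected counts per transcript, without normalization, which were rounded here. RSEM divides reads among similar transcripts, so values of transcripts with the same gene name are uncertain. Air saturation follows the study's methods. No batch is given in the labels.

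The 6 O and 3 H libraries were fitted with edgeR 4.0.16 (R 4.3.3), with TMM scaling, the quasi-likelihood F-test and Benjamini-Hochberg adjustment over 17432 transcripts, and called at an FDR of at most 0.05 and at least 1.5-fold, the limits in the study's methods. Log2 fold changes are O minus H. Depth was 9032241 to 18627740 counts per library. Intervals of counting error were not the limit, since the chi-square per degree of freedom between libraries of the same condition was 16.1 to 130.7 over 18 pairs and none was a repeated library. Distances used a prior count of 2. DESeq2 1.42.0 and limma 3.58.1 served for alternatives, scipy 1.17.1, pandas 2.3.3, numpy 2.4.6 and matplotlib 3.10.9 (Python 3.11.15) for the rest, and the calling was tested on simulated data.

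Names come from the study's tables of its 147 named highly expressed transcripts and from the first 1129 rows of its annotation, the only ones in the copy used. The members, lists and tests were chosen with earlier results of these data known. The rule for choosing transcripts took, of each list, the 2 of highest mean CPM and the 2 of largest change. It also took any list member past an unadjusted p of 0.05 and 1.5-fold and any called transcript with a name. Added to these were up to 5 named transcripts of smallest p in each direction. So were 2 unnamed ones in each direction that reached 10 reads throughout the higher group. Not every transcript so chosen is described above, with *pdi-2* and *rpl-2* among those left out. Some outside the rule are described beside others of their list or gene, such as *col-96*-like, *ubq-1-2* and *ndk-1* DN52354. Alternatives were other scalings, read limits and tests, other sets of libraries, a block for the replicate number, and omission of each library. Lists were described by counts and medians and not tested. Sequences, proteins and lipids were not analysed.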

Additional observations from a re-analysis of the deposited data

Results flagged for a closer look

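In 6 libraries of O, a value was singled out when its gap to the next library, as a share of the range, exceeded Dixon's limit at the 95% level, which chance alone passes in about 1 of 20 groups. Of 66 values checked (3 library measures and the transcripts described), 8 passed it. O replicate 1 was the highest O library for *hsp-1* (3298 CPM, others 2142 to 2457), *pck-2-1* (1861 CPM, others 1323 to 1487), *pab-1* (4940 CPM, others 2681 to 3418) and *ctl-2* (5565 CPM, others 2747 to 3549), and the lowest for *ttr-35* (252.6 CPM, others 349.7 to 398.8). O replicate 6 was the highest for *cex-2*-like (474.4 CPM, others 373.5 to 406.2), *sqst-1*-like (3028 CPM, others 1530 to 2076) and *ost-1* (3199 CPM, others 1223 to 1947).

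O replicates 2, 3 and 5 had 0.575%, 1.18% and 1.28% of their counts on the 6234 transcripts with few reads in the 11 other libraries. O replicates 1, 4 and 6 and the H libraries had 0.00274% to 0.00555%, a low share fixed by that definition.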

How the results depend on the processing

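The number of transcripts called was 6 with TMM and stayed at 6 with DESeq2's size factors, upper-quartile scaling, total counts, a limit of 20 reads and no fold limit, the same 6 each time. It was 0 when the additional transcripts were kept, 0 with a term for O replicates 2, 3 and 5, 0 with O replicates 1, 4 and 6 alone, 1 in a fit of all 16 libraries and 404 with O replicates 2, 3 and 5 alone. DESeq2 called 121, the likelihood ratio test 66, the exact test 51, limma voom 3 and the test against 1.5-fold 5, all 5 detected in H alone. Leaving out a replicate gave 0 to 10 calls. Of fits chosen after the data were seen, O replicates 1 and 4 alone gave 0 calls. With the replicate number as a block, replicates 1 to 3 of O and H gave 0 calls, and 0 without it. The deviations of same-numbered libraries correlated by 0.10, -0.08 and -0.12, and those of libraries with different numbers by -0.10 to 0.19. No pairing by number was seen, but 3 libraries of each condition cannot exclude it.

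The 13 named list members past the unadjusted limits became 2 in the test against 1.5-fold, 4 with O replicates 1, 4 and 6 (0 of them higher in H), 20 with O replicates 2, 3 and 5, and 7 to 22 when a replicate was left out, with 0 higher in H without H replicate 1. Of 1222 refitted log2 fold changes of 47 transcripts, 21 changed sign, none of them of a called transcript. With the term for O replicates 2, 3 and 5, with O replicates 1, 4 and 6, and with O replicates 1 and 4, respectively, they were -0.53, -0.53 and -0.95 for *hsp-3*, -0.093, -0.10 and -0.051 for *gpd-3* DN80994, -0.11, -0.11 and -0.053 for *ifa-1* DN83970, and -0.11, -0.12 and -0.28 for *lev-11* DN64032. O replicates 1 and 4 gave -0.056 for *prdx-2* and 0.028 for *tnt-2*, the block gave -0.020 for *his-57*, and O replicates 2, 3 and 5 gave -0.050 for *pcca-1*. Leaving out a replicate gave -0.42 to 0.0053 for *tnt-2*, -0.069 to 0.13 for *mmcm-1* and -0.033 to 0.083 for *pcca-1*. The causes were not tested. The 3 library measures stayed above the exact test's threshold in each alternative that could reach it, but their differences were not stable. For transcripts detected after thinning, the difference (O minus H) was 2388 and became -613 with O replicates 1, 4 and 6 alone. For the percentage of counts on the 100 transcripts, it was -1.24 and became -0.015 without H replicate 1.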
